A study of Mus musculus with 14 samples.

Results

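The Hox genes were all 39 mouse genes named Hoxa, Hoxb, Hoxc or Hoxd followed by a number, of 52636 genes in the deposited table. They comprise 11 genes of the HoxA cluster on chromosome 6, 10 of HoxB (chr11:96194316-96368256), 9 of HoxC (chr15:102921103-103036852) and 9 of HoxD (chr2:74668310-74765142), all coordinates in GRCm38. Antisense transcripts of the clusters were not members. Their RNA levels came from bulk sequencing of transformed mouse embryonic fibroblasts (tMEF cells) in which the telomere protein TRF1 of the mouse was substituted, per the labels, by a form of naked mole rat TRF1. Relative to the naked mole rat protein, TIN has the single substitution Ala105Thr. GLAD has Ala75Thr, Val70Ala and Glu69Lys, and the double mutant has those of both. Each mutant had 2 libraries, A and B, from cells in hypoxia (1% oxygen) and 2 from cells in normoxia (atmospheric oxygen), and wild-type naked mole rat TRF1 had 2 libraries in normoxia, which gives 14 libraries in 7 groups. All groups share the host cells and the 10% fetal calf serum of the medium. Hypoxia in wild-type cells was not analysed here.

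Hox genes encode homeodomain transcription factors that lie in 4 clusters, and in each cluster the order of the genes along the chromosome follows the order in which they are used along the body axis. Paralog groups with low numbers act towards the head, and the groups called posterior, 9 to 13, act in the trunk, the tail and the outer parts of the limbs. In the limb bud the posterior genes of HoxA and HoxD specify upper arm, forearm and hand. Fibroblasts are known to retain in culture a Hox pattern that reflects the place in the body they came from, which is why the set of expressed Hox genes is often read as a positional code.

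The recovered depth was 11916989 to 15023545 reads per library. A gene with 0 reads may still have had a level of up to 3 reads, which is 0.1997 to 0.2517 CPM (the unit of the deposited values, read counts scaled to the same sum in each library) by library and covers counting error only. Whether libraries A and B of a group came from separate cultures is not stated in the labels, so the spread behind each p-value is that of the deposited libraries and may be only technical. Nor do the labels say whether each form is 1 clone, and form and cell line cannot be told apart. The wild-type libraries carry names that contain the word mouse, although their titles and genotype give naked mole rat TRF1, and their pair differed more than any other (chi-square per gene over counting error 19.9, against 1.46 to 5.00 in the mutant pairs). Reads assigned to the mouse gene Terf1, which encodes TRF1, were present in every library, at 86.3 to 184 CPM. They stood at 126 to 184 CPM in the mutants in normoxia, 88.3 to 114 in the mutants in hypoxia, and 104 and 86.3 in wild type. Which form these reads came from was not checked. Of the fibroblast markers Col1a1, Col1a2, Col3a1, Vim, Fn1, Pdgfrb and S100a4 were at 70.2 CPM or more in every library and Thy1 was at 0.205 CPM or less. The Y-linked genes Ddx3y, Eif2s3y, Kdm5d and Uty were present in every group and Xist averaged at most 0.439 CPM in any group.

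A Hox gene was counted as expressed in a group when both libraries had at least 1 CPM in the deposited table. The expressed code consisted of HoxA and HoxD genes alone. It held 13 genes in all 7 groups: Hoxa3, Hoxa4, Hoxa5, Hoxa7, Hoxa9, Hoxa10, Hoxa11, Hoxa13, Hoxd8, Hoxd9, Hoxd10, Hoxd11 and Hoxd13. A further 3, Hoxa6 and Hoxd4 among them, were expressed in some groups and not in others, which made 16 in any group. The number was 15 in GLAD, 15 in TIN and 13 in double-mutant cells in hypoxia, against 16 in GLAD, 16 in TIN and 14 in double-mutant cells in normoxia, and 15 in wild-type cells. In normoxia the GLAD and TIN codes held the same 16 genes, which were the 15 of wild type and Hoxd4, while the double-mutant code held 14 of the 15 of wild type. In hypoxia 1 gene was below the threshold in each mutant that was above it in normoxia: Hoxd4 in GLAD, Hoxa6 in TIN and Hoxa6 in double-mutant cells. At this threshold no group gained a gene in hypoxia. With 1 CPM in either library as the rule, Hoxa6 stayed in the double-mutant code in hypoxia, and the losses in GLAD and TIN remained. The double-mutant values of Hoxa6 overlapped, at 1.05 and 1.80 TMM-scaled CPM in hypoxia against 1.64 and 1.58 in normoxia. At 0.5 CPM in both libraries the number was 17 in GLAD, 19 in TIN and 15 in double-mutant cells in hypoxia, against 16 in GLAD, 18 in TIN and 16 in double-mutant cells in normoxia. GLAD and TIN then gained Hoxd12 in hypoxia, and double-mutant cells were without Hoxd4. Hoxa6 and Hoxd4 were low, with TMM-scaled CPM (CPM corrected for composition by the trimmed mean of M values) of 0.903 to 2.86 for Hoxa6 and 0.201 to 2.23 for Hoxd4 over the libraries. The level of Hoxd4 also depends on how reads in exon bases shared with Hoxd3 were counted, which is not given.

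The 19 genes of HoxB and HoxC together received 55 reads over the 14 libraries, against 31474 for HoxA and 42332 for HoxD. Hoxb8, Hoxc5, Hoxc8 and Hoxc10 had no read in any library. The highest single values were Hoxc13, which acts in hair and nail formation, with 5 and 8 reads in double-mutant hypoxia libraries and at most 2 elsewhere, and Hoxb9 with 4 reads in wild-type library A. All other HoxB and HoxC genes stood at 2 reads or fewer in every library. Within HoxA and HoxD, 4 genes did not reach the threshold in any group. Hoxa2, which patterns the second pharyngeal arch, ranged over 0.148 to 0.891 TMM-scaled CPM. Hoxd3 ranged over 0 to 0.981 and Hoxd12 over 0 to 0.854 TMM-scaled CPM. Only 37.2% of the exon bases of Hoxd3 are shared with no other gene. Its place under the threshold may depend on how reads in shared bases were counted, which is not given. Hoxd1 had 1 read in GLAD normoxia library B and none elsewhere.

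**Figure D1:**
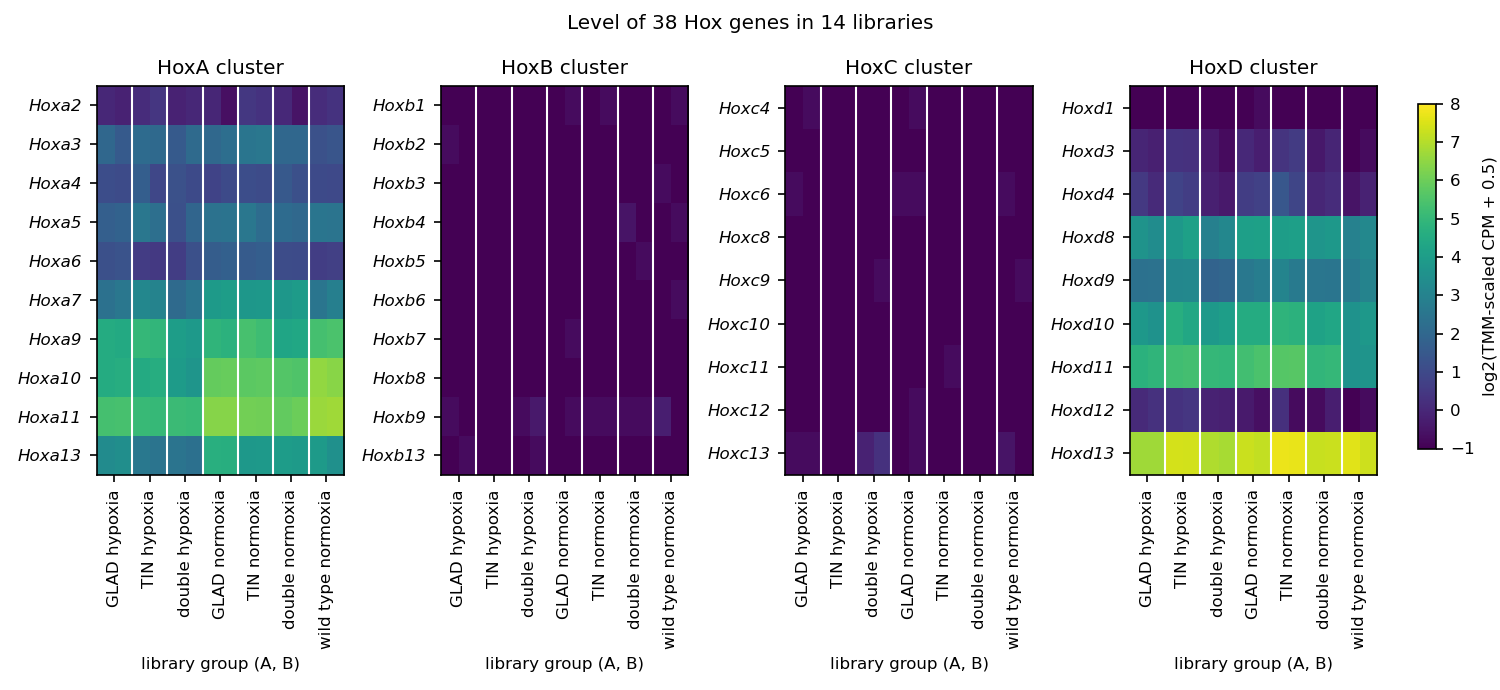
Levels of 38 Hox genes (rows, 1 panel per cluster) in the 14 libraries (columns, 2 per group between white lines), as log2 of TMM-scaled CPM plus 0.5. HoxB and HoxC are at the bottom of the scale in every group, and Hoxd13 is the brightest row in every library.

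Levels between genes were compared per kb of exon. Hoxd13, which acts in the digits and the genital tubercle, ranked first in all 7 groups, with a mean over the libraries of 62.0 CPM per kb, and Hoxa11, which acts in the forearm, ranked second in all 7 with 26.05. Hoxa10 followed with 13.4 CPM per kb, Hoxd10 with 10.35, Hoxd11 with 7.77, Hoxa9 with 5.02 and Hoxa13 with 4.97. The paralog groups 9 to 13 made up 87.6% to 91.6% of the summed Hox level per kb in mutant libraries and 93.0% and 94.1% in wild-type libraries. Below them were Hoxd8 with 4.55, Hoxa7 with 3.28 and Hoxd9 with 2.77 CPM per kb, and of the anterior genes Hoxa4 averaged 1.07, Hoxa3 0.586 and Hoxd4 0.288. In normoxia Hoxa9 ranked 9 in GLAD, 6 in TIN and 9 in double-mutant cells, against 4 in wild type, and Hoxd11 ranked 6 in GLAD, 5 in TIN and 5 in double-mutant cells, against 9 in wild type. Exon length is that of all annotated exons merged, and for a gene read from a short transcript it understates the level.

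Limb identity genes outside the clusters were read beside the code. Tbx5, the T-box gene of the forelimb bud, averaged 33.1 TMM-scaled CPM in GLAD, 29.9 in TIN and 16.2 in double-mutant cells in hypoxia, against 71.3 in GLAD, 51.7 in TIN and 60.4 in double-mutant cells in normoxia, and 52.4 in wild type. Tbx4 and Pitx1, which mark the hindlimb bud, averaged 0.128 TMM-scaled CPM or less in every group. Prrx1, a homeobox gene of limb mesenchyme, was at 144 to 521 and Tbx15 at 33.0 to 129 as group means. Forelimb and mesenchyme genes were detected in all 4 forms, and the group means of the hindlimb genes were under the level of 3 reads.

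Promoter sequences are shown for the 4 Hox genes whose levels separated hypoxia from normoxia in every mutant library and for Hoxd13, the gene with the highest level per kb. Each window runs from 250 bases before to 50 bases after a transcript start in RefSeq (GRCm38.p6), and is printed in the direction of transcription. Capitals mark ACGTG or GCGTG on either strand, the core letters recognised by the hypoxia-inducible factor; CACGTG reads as ACGTG on both strands.
Hoxa7 (chr6:52218524-52218823, minus strand): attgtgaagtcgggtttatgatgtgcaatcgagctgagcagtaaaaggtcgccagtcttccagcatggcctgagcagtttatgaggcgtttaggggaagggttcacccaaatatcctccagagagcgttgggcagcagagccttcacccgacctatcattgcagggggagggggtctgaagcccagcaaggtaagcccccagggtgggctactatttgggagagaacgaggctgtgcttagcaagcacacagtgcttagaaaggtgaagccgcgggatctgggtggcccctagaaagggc
Hoxa10, upstream start (chr6:52240805-52241104, minus strand): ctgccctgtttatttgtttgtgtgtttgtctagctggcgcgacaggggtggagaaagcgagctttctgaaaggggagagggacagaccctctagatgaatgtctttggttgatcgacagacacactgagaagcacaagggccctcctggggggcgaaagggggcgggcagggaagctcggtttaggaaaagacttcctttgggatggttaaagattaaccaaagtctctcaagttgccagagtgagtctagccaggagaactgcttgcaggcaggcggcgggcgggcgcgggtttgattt
Hoxa10, downstream start (chr6:52234890-52235189, minus strand): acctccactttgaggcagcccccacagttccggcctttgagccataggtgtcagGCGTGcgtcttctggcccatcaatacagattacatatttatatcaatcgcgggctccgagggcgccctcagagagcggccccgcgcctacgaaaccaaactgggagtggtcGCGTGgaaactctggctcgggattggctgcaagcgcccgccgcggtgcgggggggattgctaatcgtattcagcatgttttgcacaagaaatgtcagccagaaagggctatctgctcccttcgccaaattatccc
Hoxa11 (chr6:52245761-52246060, minus strand): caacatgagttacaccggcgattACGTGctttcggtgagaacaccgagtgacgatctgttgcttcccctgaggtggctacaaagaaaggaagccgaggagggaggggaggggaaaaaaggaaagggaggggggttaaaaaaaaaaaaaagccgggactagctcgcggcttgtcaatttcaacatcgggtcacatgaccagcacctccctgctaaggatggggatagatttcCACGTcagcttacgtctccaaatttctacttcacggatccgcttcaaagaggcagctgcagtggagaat
Hoxa13 (chr6:52260831-52261130, minus strand): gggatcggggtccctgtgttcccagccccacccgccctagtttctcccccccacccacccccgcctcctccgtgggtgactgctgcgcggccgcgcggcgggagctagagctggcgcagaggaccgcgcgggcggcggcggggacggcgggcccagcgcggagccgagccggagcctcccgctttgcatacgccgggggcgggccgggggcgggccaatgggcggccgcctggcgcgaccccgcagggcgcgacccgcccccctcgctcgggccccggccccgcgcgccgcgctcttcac
Hoxd13 (chr2:74667975-74668274, plus strand): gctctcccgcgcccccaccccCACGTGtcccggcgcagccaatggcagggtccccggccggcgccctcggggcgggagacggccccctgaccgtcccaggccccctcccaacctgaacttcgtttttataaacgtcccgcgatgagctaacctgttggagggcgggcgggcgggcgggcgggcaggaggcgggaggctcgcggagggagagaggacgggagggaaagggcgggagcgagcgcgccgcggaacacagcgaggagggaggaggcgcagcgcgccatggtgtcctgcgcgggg
The windows of Hoxa7, Hoxa13 and the upstream start of Hoxa10 held no match, and those of Hoxa11, Hoxd13 and the downstream start of Hoxa10 each had 2 when strands were counted separately. Of 24 windows for 22 Hox genes 58.3% held a match, against 43.8% of 32851 windows of that length over all genes. A match is a run of letters and not a binding site, and a window with none says only that these letters are not in it. The Hoxa13 window was 81.0% G or C with 45 CpG, and the median over all windows was 52.7% with 7 CpG. Over the Hox windows the median was 57.7% with 14.5 CpG. Both motifs contain a CpG, and the part of base composition in the Hox share was not tested. By cluster, 50% of 10 HoxA windows and 80% of 10 HoxD windows held a match. HoxB had only 3 windows and HoxC 1.

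The effect of hypoxia was tested in each mutant with limma on log2 values for 16157 genes, among them the 16 expressed Hox genes, and a gene was called at a Benjamini-Hochberg adjusted p under 0.05. Of the 16 Hox genes, 10 were called lower in GLAD, 8 in TIN and 10 in double-mutant cells, and none was called higher in any of the 3. Of all genes tested, 25.7% were called lower and 22.3% higher in GLAD (48% together), 27.8% lower and 26.2% higher in TIN (54.1%), and 28.3% lower and 27.7% higher in double-mutant cells (55.9%). On the mean of the 3 mutants 13 of 16 Hox genes were called lower and none higher, where 35.6% of all genes were called lower and 31.8% higher. The median Hox log2 difference on that mean was -0.40, and the median over all genes -0.022. Hoxa7, Hoxa9, Hoxa10, Hoxa11, Hoxa13 and Hoxd13 were called lower in each of the 3 mutants. The share of all genes tested that was called lower in each of the 3 was not counted. Both hypoxia libraries lay below both normoxia libraries for 14 of 16 Hox genes in GLAD, 11 in TIN and 12 in double-mutant cells, against 41.3%, 40.5% and 39.8% of all genes tested. Since only genes with at least 1 CPM in 2 libraries entered the test, these counts do not speak for the other 23 Hox genes. In bulk libraries, fewer cells that express a gene and less RNA per cell cannot be told apart.

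Hoxa10, a posterior gene of the upper limb and the uterus, fell most on the mean of the 3 mutants, while Hoxa7 fell more in GLAD and Hoxa13 fell more in TIN. Its TMM-scaled CPM were 22.8 and 23.8 in GLAD, 22.2 and 23.8 in TIN and 14.9 and 12.5 in double-mutant cells in hypoxia, against 57.7 and 59.4 in GLAD, 53.3 and 54.01 in TIN and 47.6 and 44.96 in double-mutant cells in normoxia, and 92.3 and 84.1 in wild-type cells. All 6 hypoxia libraries of the mutants lay below all 6 of their normoxia libraries, which held for 4 Hox genes and for 7.44% of all genes tested. The log2 difference on the mean of the 3 mutants was -1.41 ± 0.055 (SE, adjusted p = 1.78e-13, limma), and it was -1.31 in GLAD, -1.20 in TIN and -1.72 in double-mutant cells. Hoxa13, a gene of the hand and the urogenital tract, had 9.75 and 10.3 in GLAD, 5.65 and 5.02 in TIN and 5.02 and 4.47 in double-mutant cells in hypoxia, against 24.8 and 24.4 in GLAD, 13.4 and 13.98 in TIN and 15.1 and 14.6 in double-mutant cells in normoxia, and 14.6 and 10.99 in wild-type cells. Its hypoxia libraries were again below all normoxia libraries of the mutants, and within either oxygen level GLAD cells were the highest mutant. Over the mutants its log2 difference was -1.36 ± 0.082 (adjusted p = 8.38e-11, limma).

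Hoxa11 had 40.05 and 41.3 in GLAD, 32.6 and 32.5 in TIN and 35.1 and 32.7 in double-mutant cells in hypoxia, against 81.1 and 81.3 in GLAD, 66.5 and 65.1 in TIN and 57.3 and 62.9 in double-mutant cells in normoxia, and 100.2 and 105 in wild-type cells. The 2 wild-type libraries were the highest of the 14, and the hypoxia libraries of the mutants formed the lowest 6. The mean log2 difference was -0.94 ± 0.046 (adjusted p = 4.15e-12, limma). In the annotation Hoxa11 shares 800 exon bases with its antisense gene Hoxa11os, which fell by 0.69 on the log2 scale, and the strand setting of the counting was not given in the sources used here. Hoxa7, a trunk gene of the middle of the cluster, had 4.68 and 5.46 in GLAD, 8.49 and 7.63 in TIN and 3.82 and 4.98 in double-mutant cells in hypoxia, against 14.4 and 15.8 in GLAD, 13.2 and 13.3 in TIN and 13.1 and 15.02 in double-mutant cells in normoxia, and 5.16 and 6.84 in wild-type cells. Hypoxia libraries were lower than normoxia libraries in every mutant, and those of GLAD and double-mutant cells were at 5.46 or less. The mean log2 difference was -1.25 ± 0.095 (adjusted p = 1.99e-09, limma). Hoxa7 shares exon bases with Hoxaas3, which fell by 0.71.

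Hoxa9, which acts in the trunk and in blood progenitors, differed more between forms than between oxygen levels. It had 22.7 and 21.4 in GLAD, 31.3 and 29.9 in TIN and 15.7 and 14.1 in double-mutant cells in hypoxia, against 29.1 and 26.97 in GLAD, 41.6 and 36.4 in TIN and 19.3 and 20.01 in double-mutant cells in normoxia, and 40.6 and 43.4 in wild-type cells. TIN cells were the highest mutant and double-mutant cells the lowest at both oxygen levels, and the hypoxia and normoxia ranges overlapped across mutants. The log2 difference was -0.34 in GLAD, -0.34 in TIN and -0.39 in double-mutant cells, and -0.36 ± 0.059 on the mean (adjusted p = 3.5e-05, limma). The calls in single mutants depended on 1 library in GLAD (adjusted p = 0.0824 without GLAD hypoxia B and 0.0985 without GLAD normoxia A) and in TIN (0.0678 without TIN hypoxia B and 0.120 without TIN normoxia A).

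Among the posterior HoxD genes, Hoxd13 had 105 and 105 in GLAD, 169.5 and 168 in TIN and 121 and 113 in double-mutant cells in hypoxia, against 157 and 144 in GLAD, 214 and 206 in TIN and 152 and 154 in double-mutant cells in normoxia, and 193 and 157 in wild-type cells. Each mutant was lower in hypoxia, with no overlap within a form, and both TIN libraries in hypoxia were above all GLAD and double-mutant libraries in normoxia. On the mean of the mutants the log2 difference was -0.40 ± 0.049 (adjusted p = 8.97e-07, limma). Hoxd11, the forearm partner of Hoxa11, had 26.7 and 29.1 in GLAD, 37.3 and 38.8 in TIN and 31.1 and 30.4 in double-mutant cells in hypoxia, against 37.8 and 43.4 in GLAD, 49 and 50.1 in TIN and 29.6 and 31.3 in double-mutant cells in normoxia, and 11.6 and 12.1 in wild-type cells. It was lower in hypoxia in GLAD and TIN, while the 4 double-mutant libraries overlapped. The log2 difference was -0.53 ± 0.096 in GLAD (adjusted p = 0.000179, limma) and -0.38 ± 0.096 in TIN (adjusted p = 0.00286, limma), and 0.015 ± 0.096 in double-mutant cells (adjusted p = 0.909, limma).

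Hoxd10, which acts in the limb and in motor neurons, had 13.5 and 11.6 in GLAD, 24.3 and 20.5 in TIN and 13.8 and 16.1 in double-mutant cells in hypoxia, against 22.9 and 22.7 in GLAD, 28.4 and 27.03 in TIN and 17.6 and 19.6 in double-mutant cells in normoxia, and 11.6 and 13.4 in wild-type cells. Within each form the hypoxia libraries were below the normoxia libraries, and GLAD cells showed the widest gap. The mean log2 difference was -0.48 ± 0.074 (adjusted p = 1.44e-05, limma), from -0.84 in GLAD, -0.30 in TIN (adjusted p = 0.0529, not called) and -0.31 in double-mutant cells, where the call was lost without any 1 of 11 libraries, with an adjusted p of up to 0.256 (without double-mutant normoxia B). Hoxd8 had 11.7 and 10.01 in GLAD, 13.4 and 16.7 in TIN and 7.01 and 8.42 in double-mutant cells in hypoxia, against 16.5 and 16.99 in GLAD, 15.4 and 16.5 in TIN and 12.4 and 13.4 in double-mutant cells in normoxia, and 7.32 and 8.76 in wild-type cells. The TIN libraries of both oxygen levels overlapped, whereas hypoxia was lower without overlap in GLAD and in double-mutant cells. The log2 difference was -0.61 in GLAD and -0.71 in double-mutant cells, both called, and -0.091 in TIN (adjusted p = 0.625). Hoxd9 had 4.58 and 4.75 in GLAD, 8.49 and 8.59 in TIN and 3.14 and 3.44 in double-mutant cells in hypoxia, against 5.59 and 6.52 in GLAD, 7.87 and 5.94 in TIN and 5.22 and 5.19 in double-mutant cells in normoxia, and 5.96 and 7.65 in wild-type cells. The call was in double-mutant cells, at -0.59 ± 0.17 (adjusted p = 0.00694, limma); the values were -0.34 in GLAD (adjusted p = 0.111), 0.30 in TIN (adjusted p = 0.148) and -0.21 on the mean (adjusted p = 0.0683).

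Hoxa3, Hoxa4, Hoxa5, Hoxa6 and Hoxd4 belong to the anterior and middle paralog groups. Hoxa5, a gene of lung and neck patterning, had 2.83 and 3.01 in GLAD, 5.50 and 4.42 in TIN and 1.78 and 3.29 in double-mutant cells in hypoxia, against 4.77 and 4.94 in GLAD, 5.50 and 4.02 in TIN and 3.92 and 3.61 in double-mutant cells in normoxia, and 5.11 and 5.07 in wild-type cells. GLAD and double-mutant cells were lower in hypoxia without overlap, and the TIN libraries overlapped. The difference was -0.65 in GLAD, where the call was lost without any 1 of the 4 GLAD libraries (adjusted p of up to 0.0972, without hypoxia A), and -0.54 in double-mutant cells (adjusted p = 0.485 without double-mutant hypoxia A). The mean log2 difference was -0.37 (adjusted p = 0.0138, limma), and that p was 0.05002 without double-mutant hypoxia A and 0.0543 without TIN normoxia A. Hoxa6 had 1.79 and 1.94 in GLAD, 0.999 and 0.903 in TIN and 1.05 and 1.80 in double-mutant cells in hypoxia, against 2.63 and 2.86 in GLAD, 2.48 and 2.75 in TIN and 1.64 and 1.58 in double-mutant cells in normoxia, and 1.05 and 1.11 in wild-type cells. The TIN libraries in hypoxia were the lowest of the mutants and called (-1.10 ± 0.21, adjusted p = 0.000264, limma), and the double-mutant libraries overlapped. On the mean it was -0.57 (adjusted p = 0.000427). Hoxa3 had 3.53 and 2.40 in GLAD, 3.95 and 3.67 in TIN and 2.46 and 3.80 in double-mutant cells in hypoxia, against 3.65 and 4.25 in GLAD, 5.20 and 5.49 in TIN and 3.48 and 3.51 in double-mutant cells in normoxia, and 1.85 and 2.08 in wild-type cells. Its libraries overlapped between oxygen levels across the mutants, and the mean difference of -0.33 (adjusted p = 0.0219, limma) lost its call without any 1 of 4 libraries, with an adjusted p of up to 0.0870 (without GLAD hypoxia B).

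Hoxd4, a hindbrain and neck gene, had 0.895 and 0.562 in GLAD, 1.25 and 1.05 in TIN and 0.366 and 0.257 in double-mutant cells in hypoxia, against 1.07 and 1.19 in GLAD, 2.23 and 1.32 in TIN and 0.484 and 0.593 in double-mutant cells in normoxia, and 0.201 and 0.406 in wild-type cells. TIN cells were the highest mutant and double-mutant cells the lowest at both oxygen levels. The mean hypoxia difference was -0.40 (adjusted p = 0.0191, limma), which was lost without GLAD hypoxia B (0.0641) or TIN normoxia A (0.0801). Hoxd4 shares 1542 of its 2948 exon bases with Hoxd3 and a further gene on the same strand. How reads in shared bases were counted is not given, and they may have been left out for both genes. Of its exon bases 47.7% are shared with no other gene. Its mean level was 0.603 CPM per kb of that part, against 0.288 per kb of all exon. Hoxa3, Hoxd10 and Hoxd11 also share exon bases with other annotated genes. Hoxa4 had 1.69 and 1.58 in GLAD, 2.70 and 1.41 in TIN and 1.83 and 1.54 in double-mutant cells in hypoxia, against 1.26 and 1.53 in GLAD, 1.68 and 1.57 in TIN and 2.32 and 1.78 in double-mutant cells in normoxia, and 1.55 and 1.47 in wild-type cells. In GLAD both hypoxia libraries were above both normoxia libraries, in TIN and double-mutant cells they overlapped, and the mean hypoxia difference was 0.058 (adjusted p = 0.722). The sign of that value turned under other settings.

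**Figure D2:**
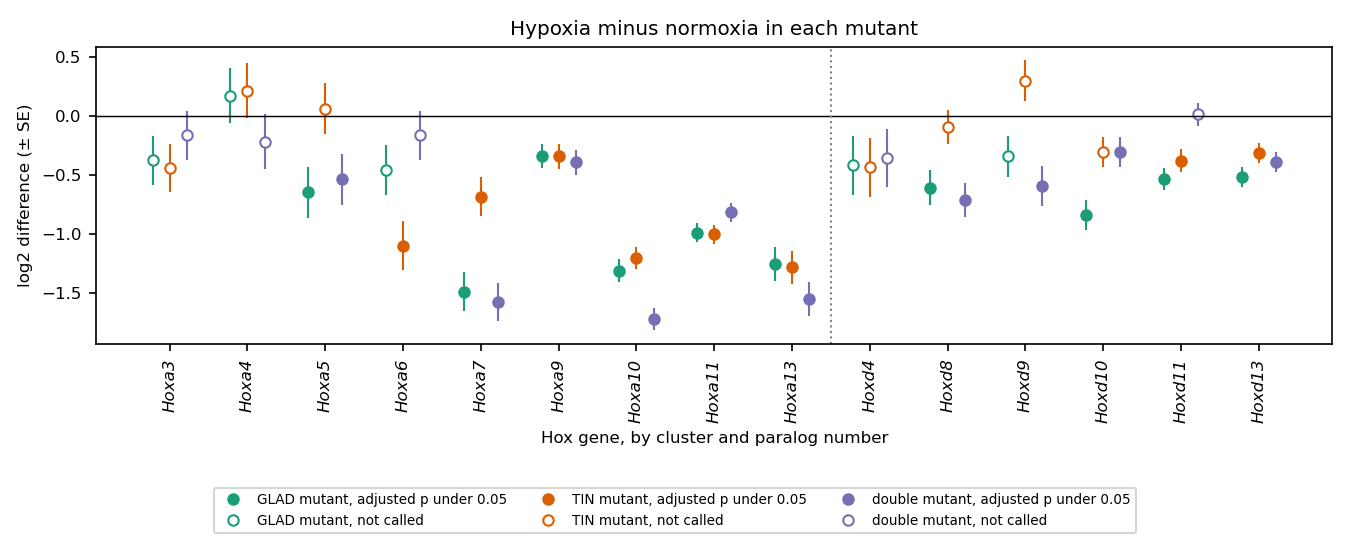
Log2 difference between hypoxia and normoxia (± SE) of 15 of the Hox genes tested, for the GLAD, TIN and double mutant, with filled points for adjusted p under 0.05 and the dotted line between HoxA and HoxD. Hoxa7, Hoxa10, Hoxa11 and Hoxa13 are filled in all 3 mutants, and no filled point lies above 0.

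The summed levels of the 2 clusters moved by different amounts. The summed HoxA level was 41.2 CPM per kb in GLAD, 38.7 in TIN and 30.2 in double-mutant cells in hypoxia, against 82.0 in GLAD, 70.8 in TIN and 61.2 in double-mutant cells in normoxia. That is 0.502 of the normoxia level in GLAD, 0.546 in TIN and 0.494 in double-mutant cells. The summed HoxD level was 62.5 CPM per kb in GLAD, 99.7 in TIN and 67.2 in double-mutant cells in hypoxia, against 92.2 in GLAD, 121 in TIN and 86.5 in double-mutant cells in normoxia, which is 0.677, 0.821 and 0.777 of the normoxia level in that order of forms. No library of 1 oxygen level overlapped with the other within a form, for either cluster. The HoxD share of the Hox level per kb was 60.2% in GLAD, 72.0% in TIN and 68.7% in double-mutant cells in hypoxia, against 52.9% in GLAD, 63.1% in TIN and 58.5% in double-mutant cells in normoxia. Wild type had the lowest HoxD share, at 49.7% and 46.5%. The 2 genes that carry most of the HoxA sum, Hoxa11 and Hoxa10, are also among those that fell most, and these sums were not tested. Hoxd13 alone carried most of the HoxD sum, for example 42.2 of 62.5 CPM per kb in GLAD in hypoxia. By gene, the median log2 difference for HoxA and HoxD was -0.47 and -0.40 on the mean of the 3 mutants. It was -0.55 and -0.52 in GLAD, -0.56 and -0.31 in TIN, and -0.46 and -0.37 in double-mutant cells.

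**Figure D3:**
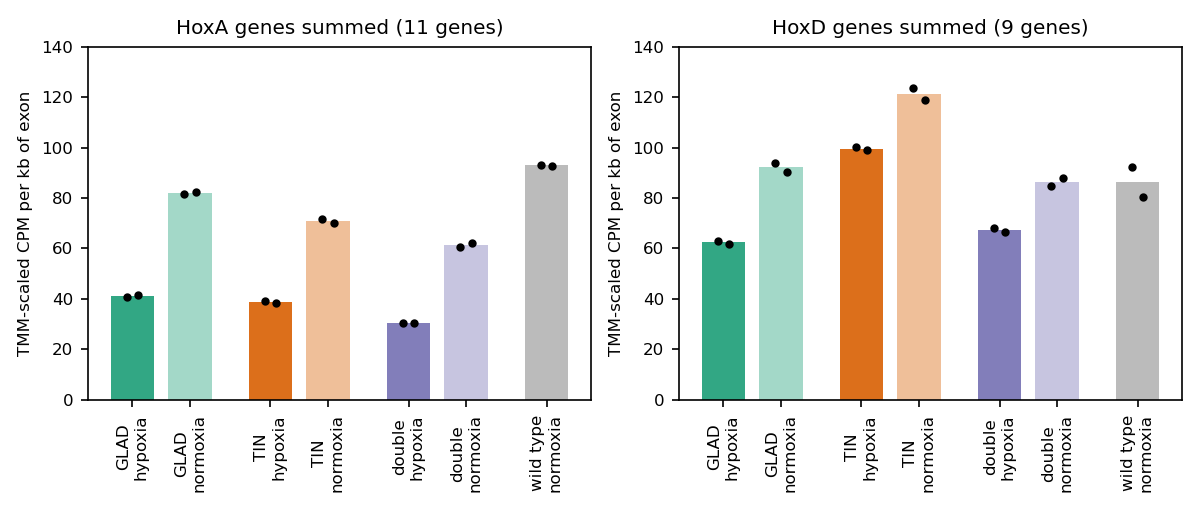
Summed level of the 11 HoxA genes (left) and 9 HoxD genes (right) in TMM-scaled CPM per kb of exon, with bars for the mean of 2 libraries, points for the libraries, and hypoxia left of normoxia in each form. HoxA bars in hypoxia stand at 0.494 to 0.546 of those in normoxia, and HoxD bars at 0.677 to 0.821.

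The mutants were set against wild type in normoxia. Of 16 Hox genes, 12 were called in GLAD (8 higher and 4 lower), 10 in TIN (8 higher and 2 lower) and 8 in double-mutant cells (5 higher and 3 lower). Of all genes tested, 55.4% were called in GLAD (28.6% higher and 26.8% lower), 60.3% in TIN (31.3% higher and 29% lower) and 56.9% in double-mutant cells (28% higher and 28.9% lower), so that the share among Hox genes is near the background in TIN and double-mutant cells. These comparisons share the 2 wild-type libraries, whose pair differed more than any mutant pair (chi-square per gene 19.9, against 1.46 to 5.0). The fit pooled the spread of all groups, so the standard errors and p-values against wild type may understate the wild-type spread. With only the groups compared in the fit, Hoxd13 was not called in GLAD (adjusted p = 0.181, limma) or TIN (0.124). The other Hox calls against wild type held in that fit. Hoxa3, Hoxa7, Hoxd8, Hoxd10 and Hoxd11 were called higher and Hoxa10 and Hoxa11 lower in all 3 mutants. The share of all genes tested that was called the same way in all 3 was not counted. All 6 mutant libraries lay above both wild-type libraries for 7 Hox genes, against 19.8% of all genes tested, and below both for 2, against 19.2%. Of the 30 Hox calls against wild type, 28 held without either wild-type library in turn.

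Hoxd11 differed most. It averaged 40.6 ± 3.97 TMM-scaled CPM in GLAD, 49.5 ± 0.763 in TIN and 30.4 ± 1.16 in double-mutant cells, and 11.8 ± 0.377 in wild-type cells (SD, n = 2 each). The log2 difference was 1.73 ± 0.096 in GLAD (adjusted p = 8.6e-11, limma), 2.02 ± 0.096 in TIN (adjusted p = 2.81e-12, limma) and 1.33 ± 0.096 in double-mutant cells (adjusted p = 2.16e-09, limma). Even the hypoxia libraries of the mutants, at 26.7 or more, stood above both wild-type libraries. Of the neighbours of Hoxd11, Hoxd10 was higher by 0.85 in GLAD, 1.12 in TIN and 0.56 in double-mutant cells, and Hoxd8 by 1.02, 0.95 and 0.66 in that order of forms. Hoxd9, which lies between them, was not called in any mutant and averaged 6.06 ± 0.654 TMM-scaled CPM in GLAD, 6.90 ± 1.37 in TIN and 5.20 ± 0.0239 in double-mutant cells, and 6.81 ± 1.19 in wild-type cells (SD, n = 2 each). Hoxd13, at the end of the cluster, differed by -0.21 in GLAD, 0.27 in TIN and -0.19 in double-mutant cells (not called, adjusted p = 0.0658). The Hoxd13 calls were lost without single libraries, with an adjusted p of 0.447 without wild-type A and 0.264 without GLAD normoxia B in GLAD, and of 0.172 without wild-type B and 0.0778 without TIN normoxia A in TIN.

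In HoxA the direction differed between genes. Hoxa7 was higher than in wild type by 1.28 ± 0.16 in GLAD, 1.09 ± 0.16 in TIN and 1.17 ± 0.16 in double-mutant cells on the log2 scale, with adjusted p of 4.61e-06, 1.67e-05 and 1e-05 (limma). Hoxa3 was higher by 0.85 in GLAD, 1.25 in TIN and 0.70 in double-mutant cells. Hoxaas3 lies on the other strand and shares exon bases with both Hoxa7 and Hoxa3. It was also called higher, by 0.82 in GLAD, 0.81 in TIN and 0.60 in double-mutant cells, and the strand setting of the counting was not given. Hoxa10, by contrast, was lower at -0.59 in GLAD, -0.71 in TIN and -0.92 in double-mutant cells, and Hoxa11 at -0.34, -0.64 and -0.77. The antisense gene Hoxa11os was lower too, at -0.54 in GLAD, -0.64 in TIN and -0.97 in double-mutant cells. Hoxa9 was lower in GLAD (-0.57) and double-mutant cells (-1.08), and -0.11 in TIN was not called (adjusted p = 0.381). Hoxa13 was higher in GLAD (0.93 ± 0.14, adjusted p = 2.98e-05, limma), and was not called in TIN (0.11, adjusted p = 0.529) or double-mutant cells (0.22, adjusted p = 0.193). The summed HoxA level was 82.0 CPM per kb in GLAD, 70.8 in TIN and 61.2 in double-mutant cells, against 93.3 and 92.6 in the wild-type libraries.

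**Figure D4:**
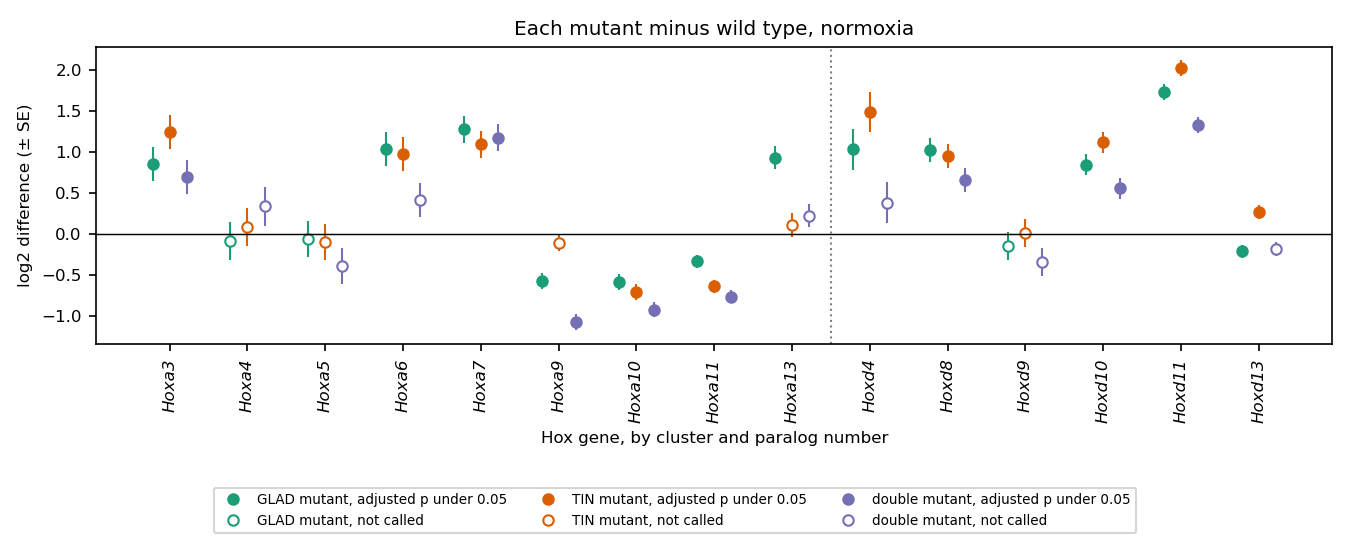
Log2 difference between each mutant and wild type in normoxia (± SE) for 15 of the Hox genes tested, with filled points for adjusted p under 0.05. Hoxd11 is highest in all 3 mutants, at 1.33 to 2.02, and Hoxa10 and Hoxa11 are below 0 in all 3.

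The mutants also differed from one another. TIN against GLAD gave 11 calls of 16 in hypoxia (8 higher and 3 lower), where 63.1% of all genes were called (29.8% higher and 33.2% lower). In normoxia it gave 5 (3 higher and 2 lower), where 51.2% of all genes were called (25.8% higher and 25.4% lower). Hoxa13 was lower in TIN at both oxygen levels, with log2 differences of -0.85 in hypoxia and -0.82 in normoxia, and Hoxa11 had -0.32 in hypoxia and -0.30 in normoxia. Hoxa9 was higher by 0.46 in hypoxia and 0.47 in normoxia, and Hoxd13 by 0.68 in hypoxia and 0.48 in normoxia. Of the 6 HoxD genes tested, 5 in hypoxia and 2 in normoxia were called higher in TIN and none lower. Hoxd13 over Hoxa13, in CPM per kb, was 29.9 and 33.3 in TIN against 10.7 and 10.1 in GLAD in hypoxia, and 15.9 and 14.6 in TIN against 6.29 and 5.86 in GLAD in normoxia. The same ratio was 13.2 and 14.2 in wild type.

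Every Hox call of the double mutant against a single mutant was lower. Against TIN there were 11 calls in hypoxia, where 64% of all genes were called (30.5% lower and 33.5% higher), and 7 in normoxia, where 48.6% were (25.8% lower and 22.8% higher). Hoxa9 had log2 differences of -1.02 ± 0.10 in hypoxia (adjusted p = 1.51e-07, limma) and -0.97 ± 0.10 in normoxia (adjusted p = 3.91e-07, limma), and Hoxd4 had -1.03 in hypoxia and -1.11 in normoxia. All 6 HoxD genes were lower in hypoxia, Hoxd9 most (-1.26). Against GLAD there were 7 calls in hypoxia, where 42.7% of all genes were called (20.9% lower and 21.8% higher), and 8 in normoxia, where 35.7% were (19.1% lower and 16.6% higher). The log2 difference of Hoxa13 was -1.01 in hypoxia and -0.71 in normoxia and that of Hoxa9 was -0.56 in hypoxia and -0.50 in normoxia. The count of 8 in normoxia was 5 without GLAD A, 3 without GLAD B, 5 without double-mutant A and 4 without double-mutant B.

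Over the 12 mutant libraries, the variation of each gene was split into shares for oxygen, for TRF1 form, for their combination and for the gap between libraries of a group. Oxygen took a larger share than form in 5 of 16 Hox genes, Hoxa6, Hoxa7, Hoxa10, Hoxa11 and Hoxa13. It was 89.0% in Hoxa11, 87.1% in Hoxa10, 84.3% in Hoxa7 and 73.6% in Hoxa13. Form took 82.2% in Hoxa9, 74.4% in Hoxd4, 66.9% in Hoxd9 and 59.8% in Hoxd13. The median share over all genes tested, taken for each part on its own, was 44.9% for form and 20.998% for oxygen. How many of all genes had a larger share for oxygen than for form was not counted. Hoxa4 was the gene with the largest share between libraries of a group, 60.6%, against a median of 4.69% over all genes.

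**Figure D5:**
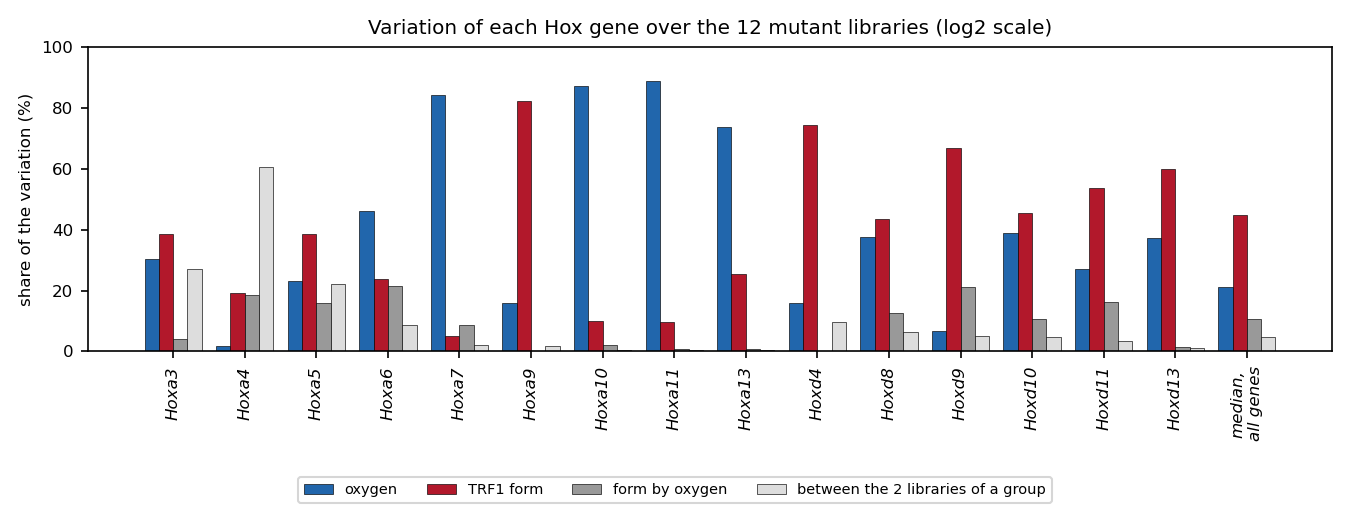
Share of the variation over the 12 mutant libraries (%) taken by oxygen, TRF1 form, their combination and the gap between libraries of a group, for 15 of the Hox genes tested and the median of all genes tested. Oxygen takes 73.6% to 89.0% in Hoxa7, Hoxa10, Hoxa11 and Hoxa13, and form 82.2% in Hoxa9.

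Whether the hypoxia effect differed between forms was tested as a difference of differences. For TIN against GLAD 3 Hox genes were called, all positive, where 33.9% of all genes were called (16.6% positive and 17.3% negative). For the double mutant against GLAD 2 were called, 1 each way (14.8% of all genes, 8.03% positive and 6.78% negative). For the double mutant against TIN 6 were called, 2 positive and 4 negative (43.1% of all genes, 22.7% positive and 20.4% negative). Hoxa7 fell less in TIN, with a difference of 0.81 ± 0.23 against GLAD (adjusted p = 0.0131, limma), and the double mutant differed from TIN by -0.89 ± 0.23 (adjusted p = 0.00515, limma). Hoxd9 in the double mutant differed from TIN by -0.89 ± 0.24 (adjusted p = 0.00674, limma). Hoxd11 differed by 0.55 ± 0.14 for the double mutant against GLAD (adjusted p = 0.0104, limma). These counts were unstable. The TIN against GLAD count was 0 without GLAD normoxia B, 1 without GLAD hypoxia A, GLAD hypoxia B, TIN hypoxia A, GLAD normoxia A or TIN normoxia B, and 5 without double-mutant hypoxia A. The double mutant against GLAD count was 0 without GLAD hypoxia A, GLAD normoxia B or double-mutant normoxia A, and 1 without GLAD hypoxia B, GLAD normoxia A, double-mutant hypoxia B, double-mutant normoxia B or any TIN library. The double mutant against TIN count was 3 without TIN hypoxia B, and the calls of Hoxa10, Hoxd8 and Hoxd11 in it were lost once the trend with length and GC was taken out. The calls of Hoxa7 and Hoxd9 for the double mutant against TIN held under all 24 alternatives, while Hoxa7 for TIN against GLAD was lost without GLAD hypoxia A (adjusted p = 0.0618), TIN hypoxia A (0.0569) or GLAD normoxia B (0.0569), and Hoxd11 for the double mutant against GLAD without GLAD hypoxia A (0.0581), GLAD normoxia B (0.0756) or double-mutant normoxia A (0.0535).

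Genes that act with or on the clusters were described from lists, as called in hypoxia on the mean of the 3 mutants, where 67.3% of all genes tested were called, 31.8% higher and 35.6% lower. Of 9 Hox cofactors of the PBX, MEIS and PKNOX families, which bind DNA together with Hox proteins, 2 were called higher and 4 lower, with a median log2 difference of 0.034. Pbx2 (-0.57 ± 0.052, adjusted p = 2.57e-08, limma) and Pbx3 (-0.53) were lower, and Meis2 was higher (0.86 ± 0.054, adjusted p = 1.58e-10, limma). By form, Meis2 was higher by 0.88 in GLAD and 1.63 in double-mutant cells, with 0.081 in TIN (not called, adjusted p = 0.488, limma). Its hypoxia effect differed by -0.80 for TIN against GLAD (adjusted p = 0.00027, limma) and by 1.54 for the double mutant against TIN (adjusted p = 1.53e-07, limma). With the length and GC trend removed, Meis2 was called higher in TIN and the TIN against GLAD difference was not called. The other higher call, Pknox1 (0.12, adjusted p = 0.0358, limma), was lost without any 1 of 10 libraries. Pbx3 was also lower than in wild type in normoxia, at -1.24 in GLAD, -0.90 in TIN and -1.06 in double-mutant cells. Of 22 Polycomb genes, whose complexes keep Hox genes silent, 8 were called higher and 6 lower (median 0.067), with Suz12, a core subunit of the complex that methylates histone H3, higher (0.54) and Cbx6, a subunit that reads the mark, lower (-0.96). Of 16 tested Trithorax and activator genes 6 were called in each direction (median 0.058), with the retinoic acid receptor Rarg lower (-0.55) and the histone methyltransferase Dot1l higher (0.43).

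Of 19 tested genes flanking the clusters, 4 were called higher and 13 lower in hypoxia (median -0.15), and the next 2 lists are read against the same 31.8% and 35.6% of all genes tested. Evx2, the homeobox gene next to Hoxd13, was the lowest of them, at -0.9985 ± 0.097 (adjusted p = 5.45e-08, limma), and was named for its value after it was seen. Of 5 tested noncoding RNAs of the clusters 2 were called, both lower, Hoxa11os and Hoxaas3. Of 25 tested homeobox and T-box genes of limb and region, 7 were called higher and 10 lower (median -0.072). Prrx2, a limb mesenchyme gene, was lower (-1.34 ± 0.059, adjusted p = 1.09e-12, limma), as were Tbx5 (-1.25) and Lhx9 (-1.15), while Tbx2 (1.27) and Irx3 (1.14) were higher.

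Against wild type in normoxia, the same list had 9 genes higher and 11 lower in GLAD, 5 higher and 12 lower in TIN, and 4 higher and 11 lower in double-mutant cells, of 25 tested. Of all genes tested 28.6% were higher and 26.8% lower in GLAD, 31.3% higher and 29% lower in TIN, and 28% higher and 28.9% lower in double-mutant cells. Emx2, a homeobox gene of forebrain, shoulder girdle and urogenital tract, averaged 1.202 TMM-scaled CPM in GLAD, 0.716 in TIN and 1.00 in double-mutant cells, against 7.25 in wild-type cells. Its log2 difference was -2.20 ± 0.26 in GLAD, -2.71 ± 0.26 in TIN and -2.37 ± 0.26 in double-mutant cells, and it was called in all 3. Lmx1b, which specifies the dorsal side of the limb, averaged 0.638 in GLAD, 0.222 in TIN and 5.70 in double-mutant cells, against 8.81 in wild-type cells, and was lower at -3.03 in GLAD and -3.70 in TIN.

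Cell type markers moved with some of these comparisons. The summed fibroblast markers stood at 10450.0 to 12040.0 TMM-scaled CPM in GLAD, 7558 to 7643 in TIN and 8478 to 8614 in double-mutant cells in hypoxia, and at 9161 to 9551 in GLAD, 7188 to 7313 in TIN and 7986 to 9111 in double-mutant cells in normoxia, against 14850.0 to 15550.0 in wild type. On the mean of the 3 mutants 1 of the 7 fibroblast markers tested was called higher in hypoxia and 4 lower, where 31.8% of all genes were called higher and 35.6% lower. Against wild type in normoxia, 1 was called higher in each mutant, and 5 lower in GLAD, 5 in TIN and 4 in double-mutant cells. Of all genes tested 28.6% were higher and 26.8% lower in GLAD, 31.3% and 29% in TIN, and 28% and 28.9% in double-mutant cells. Col1a1 was lower than in wild type, at -1.22 in GLAD, -2.77 in TIN and -1.79 in double-mutant cells. Col1a2 was lower too, at -0.89 in GLAD, -2.55 in TIN and -2.25 in double-mutant cells. The marker called higher was S100a4 in GLAD and TIN and Col3a1 (1.08) in double-mutant cells. Pdgfrb, a receptor for platelet-derived growth factor, was lower in hypoxia, at -1.01 in GLAD, -0.92 in TIN and -1.61 in double-mutant cells, and the fibronectin gene Fn1 was higher by 0.64 on the mean. The summed neural markers (Sox2, Sox10 and Tubb3) stood at 96.8 to 98.8 TMM-scaled CPM in TIN, 13.6 to 15.0 in GLAD and 19.5 to 20.4 in double-mutant cells in hypoxia, and at 52.8 to 56.3 in TIN, 11.4 to 11.6 in GLAD and 15.4 to 17.8 in double-mutant cells in normoxia, against 10.3 to 11.5 in wild type. Sox10 averaged at most 0.175 in any group. The summed myeloid markers were higher in hypoxia through Cd68, which averaged 44.4 in GLAD, 40.5 in TIN and 40.7 in double-mutant cells in hypoxia, against 16.9 in GLAD, 7.09 in TIN and 10.4 in double-mutant cells in normoxia, while Ptprc averaged at most 0.0514 and Adgre1 at most 0.05 in any group. The summed epithelial markers (Epcam, Cdh1, Krt8 and Krt18) stood at 1.43 to 1.64 in GLAD, 1.56 to 2.35 in TIN and 2.41 to 3.14 in double-mutant cells in hypoxia, and at 0.297 to 0.341 in GLAD, 0.344 to 0.347 in TIN and 1.40 to 1.43 in double-mutant cells in normoxia, against 0.355 to 0.401 in wild type. The keratin gene Krt18, the 1 of these tested, was higher in hypoxia by 0.72 ± 0.13 on the mean (adjusted p = 0.000138, limma). The summed skeletal muscle markers (Myod1, Myog and Des) stood at 4.67 to 5.91 in double-mutant cells in hypoxia, against 1.83 to 2.03 in double-mutant cells in normoxia, and at 1.899 or less in every other group. Of these the intermediate filament gene Des was higher by 1.23 ± 0.25 in double-mutant hypoxia (adjusted p = 0.000477, limma), and Myod1 averaged at most 0.0498 and Myog at most 0.151 in any group. The Y-linked genes were called lower in TIN than in GLAD in normoxia for 4 of 4, with a median of -1.33, where 25.4% of all genes tested were called lower. The part of these in the Hox differences was not tested.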

How the data were processed

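Expression was measured by RNA sequencing of total RNA in 14 libraries. Reads were aligned with STAR and counted with HTSeq, per the submitters' processing notes, which name GRCm38.p4 and mm10; which versions, strand setting and annotation were used is not given in the sources used here. The authors deposited CPM (read counts scaled to a sum that is the same in each library) per Ensembl gene. CPM values matched a step times whole reads multiplied by a factor and rounded up, from which 11916989 to 15023545 reads per library were recovered (99.7% to 99.9% of values fitted) for depth and 1 alternative. Of 52636 identifiers, 52403 had a symbol and an entry in GENCODE M21.

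CPM were scaled by TMM factors (30% of log ratios and 5% of levels trimmed), 0.5 CPM was added and log2 taken. The test covered 16157 genes that reached 1 CPM in 2 or more libraries, of 32273 above 0. A model of 7 group means (7 residual and 10.6 prior degrees of freedom) was fitted with limma 3.58.1 in R 4.3.3, and p-values were adjusted by Benjamini-Hochberg within each of 16 comparisons. Fold changes are on the log2(value + 0.5) scale, which understates changes of low genes. The procedure was tested on simulated data with the same spread in every group, which does not cover the wider gap of the wild-type pair. Values in every library are given for each Hox gene with at least 1 CPM in both libraries of a group. List genes are named for changes of at least 1 log2 unit, with up to 5 others per list by mean level. Not every list gene with such a change is named in every comparison. Results of 1 member and 1 list gene are not reported here, though the counts include them. The members and lists were chosen with earlier results of these data known. Alternatives covered pseudocount, filter, scaling, the libraries fitted, the replicate block, each library left out, limma-voom on recovered reads, and a length and GC trend, the last pair and all those for lists chosen after seeing the data.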

Additional observations from a re-analysis of the deposited data

Results flagged for a closer look

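The hypoxia effect of 11 Hox gene and form pairs differed between mutants by the test of the difference itself (limma, adjusted p under 0.05), each value being a difference of log2 differences. Each comparison tested 16 Hox genes. Of these, 3 were called for TIN minus GLAD, where 33.9% of all genes tested were called. The double mutant minus GLAD had 2 (14.8% of all genes), and the double mutant minus TIN had 6 (43.1% of all genes). For TIN minus GLAD, Hoxa7 differed by 0.81, Hoxd9 by 0.64 and Hoxd10 by 0.54. For the double mutant minus GLAD, Hoxa10 differed by -0.41 and Hoxd11 by 0.55. For the double mutant minus TIN, Hoxa6 differed by 0.94, Hoxa7 by -0.89, Hoxa10 by -0.52, Hoxd8 by -0.62, Hoxd9 by -0.89 and Hoxd11 by 0.39. Of these 11, the calls of Hoxa7 and Hoxd9 for the double mutant minus TIN held under all 24 alternatives, and the others were lost under at least 1. The adjusted p of Hoxd9 for TIN minus GLAD (0.0488) was 0.209 without TIN normoxia B, and that of Hoxa10 for the double mutant minus GLAD (adjusted p = 0.0478) was 0.166 without double-mutant hypoxia B.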

How the results depend on the processing

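Of 131 called Hox results, 95 kept their call and sign under all 24 alternatives, 36 lost the call at least once, and none changed sign. Counts of Hox genes called moved by over 1.5 times in 5 comparisons. For the double mutant minus GLAD in normoxia, 8 became 5 with a pseudocount of 0.1 CPM, without a filter and with a filter at 5 CPM, and 3 to 10 when 1 library was left out. For the double mutant minus TIN in normoxia, 7 became 11 with the length and GC trend removed. For the difference of hypoxia effects, TIN minus GLAD had 3 calls, 1 without a filter, 6 with only the groups compared, and 0 to 5 with 1 library left out; the double mutant minus GLAD had 2, and 1 with a pseudocount of 1 CPM or limma-voom, and 0 to 3 with 1 library left out; and the double mutant minus TIN had 6, 3 to 6 with 1 library left out, and 4 with the length and GC trend removed. That removal ended 3 of the 6 calls, Hoxa10 (-0.32, adjusted p = 0.0709), Hoxd8 (-0.40, 0.105) and Hoxd11 (0.32, 0.0744), and 1 other was gained. The code at 5 CPM held 8 genes in GLAD, 9 in TIN and 7 in double-mutant cells in hypoxia and 10 in GLAD cells in normoxia, and no HoxB or HoxC gene entered it at 0.5 CPM either. Of the values printed, signs turned only where there was no call, and ranges are over libraries left out in turn: Hoxd11 in double-mutant hypoxia (-0.069 with deposited CPM, -0.028 to 0.053), Hoxa4 on the mean (-0.067 to 0.18, -0.040 with the length and GC trend removed), Hoxd8 in TIN hypoxia (-0.24 to 0.060) and Hoxa13 in TIN against wild type (-0.087 to 0.30). The cause was not tested. Deviations of libraries with the same letter correlated at -0.096 to 0.161 over 21 pairs of groups, 3 of them above 0.1. Pairs of the same form were not singled out, so a pairing by letter is not excluded. With the letter as a replicate block, 3 calls were lost. They were Hoxd10 in double-mutant hypoxia (adjusted p = 0.0534, limma), Hoxd9 for the TIN minus GLAD hypoxia effect (0.0522) and Hoxd4 for the double mutant minus GLAD in normoxia (0.0523). The planned edgeR fit was not run, because the deposited CPM steps are not whole reads themselves, and limma-voom on the recovered reads took its place. Levels under 0.1997 to 0.2517 CPM are below the depth of these libraries.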
